A study of Mus musculus with 3 samples.

Results

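The colony-stimulating factors are secreted proteins that drive the survival, growth and activation of macrophages, granulocytes and their relatives. Csf1 and Il34 both bind the receptor tyrosine kinase Csf1r, which tissue macrophages depend on. Csf2 binds a receptor made of the chain Csf2ra, specific to it, and the signalling chain Csf2rb, which is shared with the receptors of Il3 and Il5 in the mouse. Csf3 acts through Csf3r on neutrophils and their precursors. The 7 genes described here are the ligands Csf1, Il34, Csf2 and Csf3 and the receptor genes Csf1r, Csf2ra and Csf2rb, taken by symbol from the 32285 genes listed for each library. They were selected on their levels in these libraries, by class and library, the near absence of Csf2 from macrophages and tenocytes of the oldest mice included, so the levels below are a description and carry no test.

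The cells came from flexor digitorum longus (FDL) tendons of mouse hind paws, profiled by droplet single-cell RNA sequencing that counts unique molecular identifiers (UMIs). There were 3 libraries, 1 per group, and each pooled 16 tendons from mice of both sexes. The library 6 M DTR came from mice with Scx-Cre and 1 floxed allele of the diphtheria toxin receptor (Scx-Cre+; DTR F/+), in which cells that have expressed the tendon gene Scleraxis carry the receptor and die on diphtheria toxin (DT). The library 6 M WT came from Scx-Cre-; DTR F/+ littermates. Both sets of mice received 5 injections of DT into the hind paw as young adults. The library 21 M B6 came from C57BL/6J mice aged 21 months that received no DT, so age, strain background and the toxin cannot be told apart in its comparison with WT. The libraries are called WT, DTR and B6 from here on, and values given without a library name are in that order. The age label of WT and DTR is 3 months, where the study's text gives 6 months at harvest, which the library names follow. The tendons of WT were digested for 120 minutes and those of the others for 90 minutes, and digestion and group cannot be told apart either. The mix of sexes differed too. Kept cells called female and male by sex-linked genes numbered 5104 and 1991 in WT, 2145 and 3101 in DTR and 2164 and 1711 in B6. Ratios over cells of both sexes therefore mix sex with group. Scx-Cre marks a lineage, not the tenocytes present at harvest.

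Of the deposited barcodes, 8357 (WT), 6554 (DTR) and 4798 (B6) were kept, with medians of 13008, 12328 and 12914 UMIs per cell. Barcodes with over 10% mitochondrial counts made up 27.6%, 43.1% and 56.5% of those deposited, so the libraries also differed in cell quality. Cells were assigned to classes by 6 marker genes each, none of them among the 7 genes. Tenocyte-gated cells made up 56.4%, 38.7% and 15.4% of kept cells in WT, DTR and B6, epitenon-gated cells 10.8%, 12.2% and 46.7%, and macrophage-gated cells 6.62%, 16.7% and 10.2%. A gate selects cells by its markers, so their levels are no check of it. Tnmd stood at 573 to 674 CPM in tenocyte-gated cells and at 18.04 to 38.42 CPM elsewhere. C1qa stood at 2010 to 2480 CPM in macrophage-gated cells and at 4.86 to 10.96 CPM elsewhere. Clec3b separated less, at 1297 CPM in epitenon-gated cells of WT and 752 CPM elsewhere. In other fibroblast-gated cells of WT, Dcn, Col1a1 and Serpinf1 were lower than elsewhere, while Pdgfra, Lum and Col3a1 were higher. Libraries shared 61 to 76 barcodes per pair, and 13 to 15 of these were kept in both. In these levels CPM is the summed UMIs of a gene in a class per 1000000 UMIs of that class, and the bracketed 95% intervals are exact intervals that cover counting error only. They say nothing about mice, since 1 library stood for each group. A gene of 10 CPM or more in 1 of the libraries compared was counted as 2-fold different where its CPM ratio reached 2 in either direction.

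The start of the ligand gene Csf1 and that of the receptor gene Csf2ra are shown because the former was read mainly in stromal cells and the latter in myeloid cells. Csf1 (ENSMUSG00000014599) lies on chromosome 3 at 107741048 to 107760469 on the minus strand, and Csf2ra (ENSMUSG00000059326) on chromosome 19 at 61223957 to 61228429 on the minus strand (GRCm38). Csf2 lies on chromosome 11 at 54247271 to 54249667 (minus strand), Csf3 on chromosome 11 at 98701263 to 98703629 (plus strand), Il34 on chromosome 8 at 110741829 to 110805924 (minus strand) and Csf2rb on chromosome 15 at 78325752 to 78353847 (plus strand). Promoters of 3 of the 7 genes (Csf1, Csf2, Csf2ra) were matched in RefSeq's table for GRCm38.p6. The 250 bases before RefSeq's start site are given 5′ to 3′ on the gene's strand. For Csf2ra the window reaches down to 61228419, while the gene span given above, from another source, ends at 61228429. The last bases of that window, with part of its marked PU.1 motif, thus lie within that span. Capitals mark each match to a GC box (GGGCGG), a CRE (TGACGTCA), a PU.1 motif (GAGGAAG), an AP-1 motif (TGANTCA) or an NF-kappaB motif. Both strands were searched, and a match that overlapped an earlier one of the same motif and strand was not marked or counted.
Csf1 promoter, chr3:107760470-107760719: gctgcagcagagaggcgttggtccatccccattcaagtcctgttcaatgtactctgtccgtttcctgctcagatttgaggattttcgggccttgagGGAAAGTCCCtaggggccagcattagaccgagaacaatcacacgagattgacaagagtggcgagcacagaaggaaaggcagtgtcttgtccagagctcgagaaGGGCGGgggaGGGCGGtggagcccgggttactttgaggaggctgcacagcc
Csf2ra promoter, chr19:61228419-61228668: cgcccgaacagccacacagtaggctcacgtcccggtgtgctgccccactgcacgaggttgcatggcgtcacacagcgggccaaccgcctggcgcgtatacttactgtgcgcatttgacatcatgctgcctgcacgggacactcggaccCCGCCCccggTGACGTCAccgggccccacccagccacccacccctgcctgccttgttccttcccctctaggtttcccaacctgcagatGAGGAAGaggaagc
The Csf1 window held 1 NF-kappaB match and 2 GC boxes. The Csf2ra window held 1 GC box, 1 CRE, whose letters read the same on both strands, and 1 marked PU.1 motif. The last G of that motif also begins an overlapping GAGGAAG, which is left in small letters. Of 32851 windows of this length, 32.7% held a GC box, 3.90% an NF-kappaB motif, 1.55% a CRE, 10.6% a PU.1 motif and 6.75% an AP-1 motif. A match is a description of the letters and not a binding site.

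Csf1, the growth factor of macrophages, had the most UMIs of the 4 ligand genes and was read mainly in stromal cells. In tenocyte-gated cells it stood at 570 CPM (564 to 576) in WT, 326 CPM (320 to 332) in DTR and 297 CPM (286 to 309) in B6. The level in DTR was 0.572-fold that of WT (0.559 to 0.584) and the level in B6 was 0.522-fold (0.501 to 0.543). Both libraries thus sat below WT by similar amounts in tenocytes, and neither ratio reached the 2-fold mark that 3.85% (DTR) and 5.92% (B6) of all genes compared in tenocytes passed. The median gene of these comparisons moved by 0.03 and -0.27 on the log2 scale. The mix of tenocytes differed too. Of the cell clusters named tenocyte by the same markers, the first held 4542, 927 and 741 cells of WT, DTR and B6. The second held 994, 2101 and 260. The part of this mix in the Csf1 ratios was not tested. The lower level was present in cells of both sexes: Csf1 stood at 565, 353 and 289 CPM in tenocytes called female and at 601, 315 and 316 CPM in those called male, in the order WT, DTR and B6.

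After each cell was thinned to 2000 UMIs, Csf1 was detected in 45.5%, 32.4% and 34.8% of tenocytes in WT, DTR and B6. Without thinning the shares were 83.2%, 73.1% and 76.7%, at median depths of 12948, 12486 and 11243 UMIs. In satellite-gated cells, a muscle precursor class set as the comparison, the thinned shares were 9.76%, 10.4% and 6.15%, at median depths of 10332, 8153 and 8675 UMIs. These cells held Csf1 at 9.89%, 34.5% and 14.3% of the tenocyte level, where the tenocyte markers were at medians of 0.718%, 1.28% and 0% of theirs, so the class is not read as one without the gene. In T and NK cells the thinned shares were 4.13%, 4.33% and 1.32%. Csf1 was spread over many tenocytes, since the 10 highest cells held 2.79% (WT), 7.01% (DTR) and 14.4% (B6) of its tenocyte UMIs.

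Epitenon-gated cells, the sheath fibroblasts marked by genes such as Pi16 and Clec3b, held Csf1 at 301 CPM in WT, 299 CPM in DTR and 267 CPM in B6. Relative to WT the ratios were 0.993 (0.95 to 1.04) and 0.889 (0.858 to 0.922), and the second became 1.08 when edgeR's TMM factors replaced total counts. Over cells of both sexes the epitenon level thus differed little between libraries where the tenocyte level was 570 against 326 and 297 CPM. Epitenon-gated cells called female stood at 292, 348 and 262 CPM and those called male at 328, 258 and 279 CPM. The DTR ratio was thus 1.19 in the former and 0.787 in the latter. Of all genes compared in epitenon-gated cells, 1.72% (DTR) and 3.2% (B6) were at least 2-fold different, and neither Csf1 nor Csf2, the 2 of the 7 genes high enough to be compared there, was among them. Other fibroblast-gated cells held Csf1 at 416, 290 and 292 CPM, which was 0.696-fold and 0.702-fold the WT level in DTR and B6.

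The share of all Csf1 UMIs that lay in each class followed the number of its cells as well as its level. Tenocytes held 73.0% of the Csf1 UMIs of WT, 55.1% of those of DTR and 17.9% of those of B6. Epitenon-gated cells held 8.80%, 19.3% and 61.7%. The main source of Csf1 message was therefore the tenocyte in the libraries of the younger mice and the epitenon class in B6. In these class sizes, digestion and tissue makeup cannot be told apart. Over all kept cells Csf1 fell from 438 CPM in WT to 231 CPM in DTR and 224 CPM in B6.

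**Figure D1:**
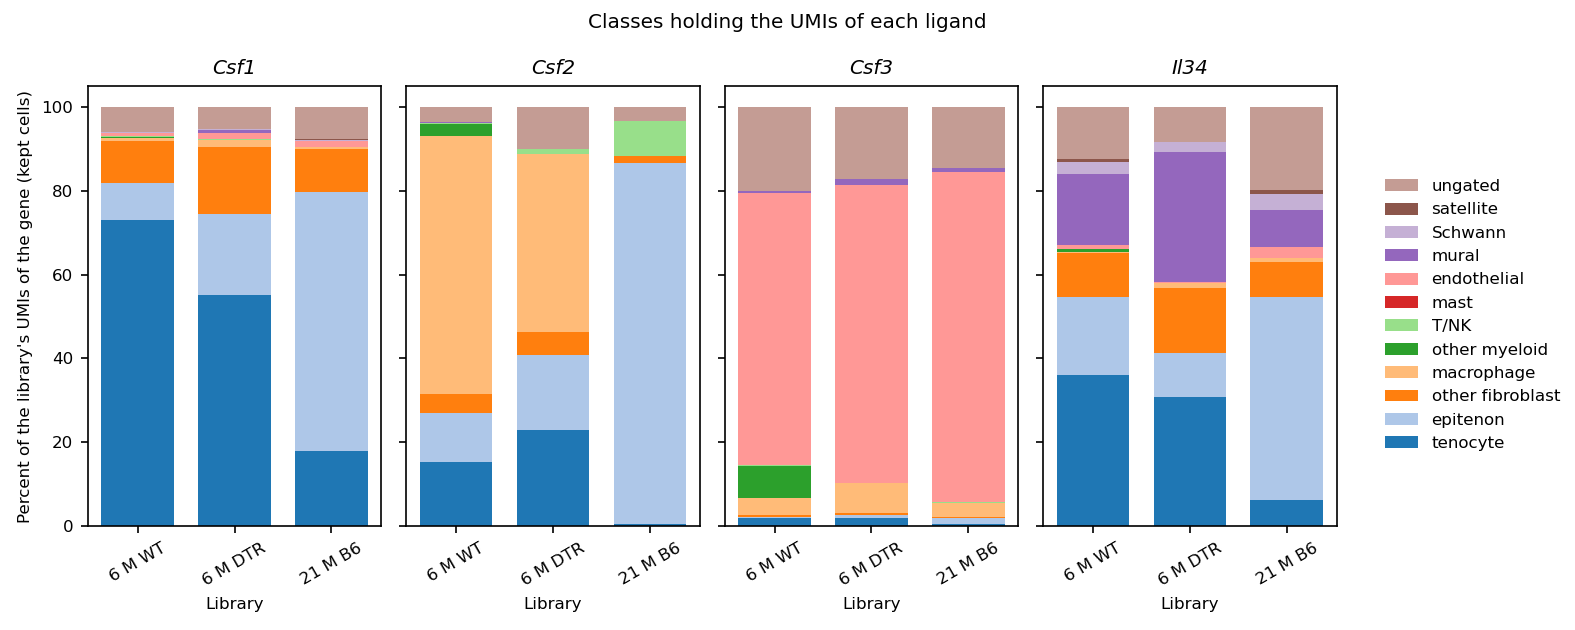
Share of the UMIs of each ligand gene that lay in each gated class, in percent, for WT, DTR and B6. Tenocytes hold 73.0% of Csf1 in WT and epitenon-gated cells 61.7% in B6, macrophages hold 61.7% of Csf2 in WT and 0.173% in B6, and endothelial cells hold 65.0% to 78.8% of Csf3.

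Among other classes, endothelial cells held Csf1 at 268, 188 and 130 CPM, and the level in B6 was 0.486-fold that of WT (0.408 to 0.578). That ratio did not reach the 2-fold mark under several alternatives, among them a mitochondrial limit of 5% (0.682), cells called female (0.596), positive shares (0.587) and TMM factors (0.552). The 4 haemoglobin genes of red cells summed to 45.1, 2775 and 3481 CPM in endothelial cells, and their part in the ratio was not tested. Other myeloid cells, which carried general myeloid genes but fewer than 3 macrophage markers, held it at 236, 36.1 and 15.0 CPM on 200, 34 and 8 UMIs, 0.153-fold and 0.0633-fold the WT level. Both classes were small, with 140 to 159 endothelial and 31 to 66 other myeloid cells per library. Mural cells of the vessel wall held 63.9, 80.7 and 32.8 CPM, Schwann cells 67.2, 43.0 and 61.7 CPM and satellite-gated cells 56.3, 112 and 42.4 CPM.

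Macrophages held little Csf1: 39.3 CPM in WT, 21.6 CPM in DTR and 9.88 CPM in B6. These levels were 6.90%, 6.65% and 3.32% of the tenocyte level, while the tenocyte markers read in macrophages were at a median of 2.32%, 0.799% and 0.400% of their tenocyte level. Free RNA from broken tenocytes and Csf1 message made by macrophages both enter such a value, and their parts were not tested.

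Within tenocytes of WT, the 5 genes whose detection differed most between the 3918 cells with Csf1 and the 793 without were Clec3b, Tlr2, Icam1, Rnd1 and Retreg1. Clec3b, a plasminogen-binding protein that was also one of the epitenon markers, was detected in 54.1% against 34.4% of these cells after thinning. Tlr2, a receptor for bacterial lipoproteins, was detected in 44.0% against 27.7%, and Icam1, an adhesion molecule for leukocytes, in 38.7% against 24.1%. In DTR the shares were 41.4% against 17.1% for Clec3b, 19.6% against 12.0% for Tlr2 and 29.6% against 21.2% for Icam1. In B6 they were 47.8% against 39.5%, 24.9% against 20.9% and 49.9% against 44.2%. Cells with Csf1 were the deeper ones, with a median of 13569 UMIs against 9768 in WT, and thinning does not change which cells were called positive. Of 20 genes of stromal inflammation, such as Ccl2, Cxcl1 and Saa3, 15 (WT), 15 (DTR) and 16 (B6) were more often detected in tenocytes with Csf1. Of 16 immediate-early genes, such as Fos and Egr1, 3 were more often detected in them in each library. Of all genes detected in these cells after thinning, 54.5%, 51.1% and 54.3% were more often detected in tenocytes with Csf1.

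Il34, the other ligand of Csf1r, reached its highest levels in mural and Schwann cells. In mural cells it stood at 65.7 CPM (51.6 to 82.3) in WT, 111 CPM (95.2 to 129) in DTR and 73.0 CPM (44.6 to 113) in B6. The DTR level was 1.69-fold that of WT (1.28 to 2.25), and the B6 level, resting on 20 UMIs in 33 cells, was 1.11-fold (0.643 to 1.84). Among mural cells called male the DTR ratio was 2.57, the highest of 17 alternatives, of which the lowest was 1.24. Schwann cells held 36.4, 35.0 and 25.2 CPM. Without thinning 35.3%, 52.7% and 39.4% of mural cells had an Il34 UMI, against 0 of 121, 0 of 300 and 0 of 76 T and NK cells, which allows shares of cells with a UMI of up to 2.48%, 1.00% and 3.95%. The median depths were 8226, 7681 and 8464 UMIs in mural cells and 9986, 7945 and 9902 UMIs in T and NK cells. After thinning 14.7%, 23.1% and 12.1% of mural cells were positive.

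Fibroblasts held Il34 at a low level over many cells. Tenocytes stood at 2.50, 5.2 and 1.57 CPM, with ratios to WT of 2.08 (1.67 to 2.60) in DTR and 0.629 (0.336 to 1.09) in B6. Tenocytes called female held 3.43 CPM in DTR against 2.86 CPM in WT, and those called male 6.28 against 1.82 CPM, a ratio of 3.45. They nevertheless held 36.0%, 30.8% and 6.17% of all Il34 UMIs, because they were so many. Epitenon-gated cells held 5.71, 4.59 and 3.23 CPM. The thinned share of positive tenocytes was 0.509%, 0.946% and 0.406%, and that of satellite-gated cells was 0, 2.08% and 0. Without thinning the tenocyte shares were 3.10%, 5.79% and 1.76%, while 1 satellite-gated cell was positive in each library (2.44%, 2.08% and 1.54%) and 0 T and NK cells were. Macrophages held 1, 7 and 2 Il34 UMIs in all.

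**Figure D2:**
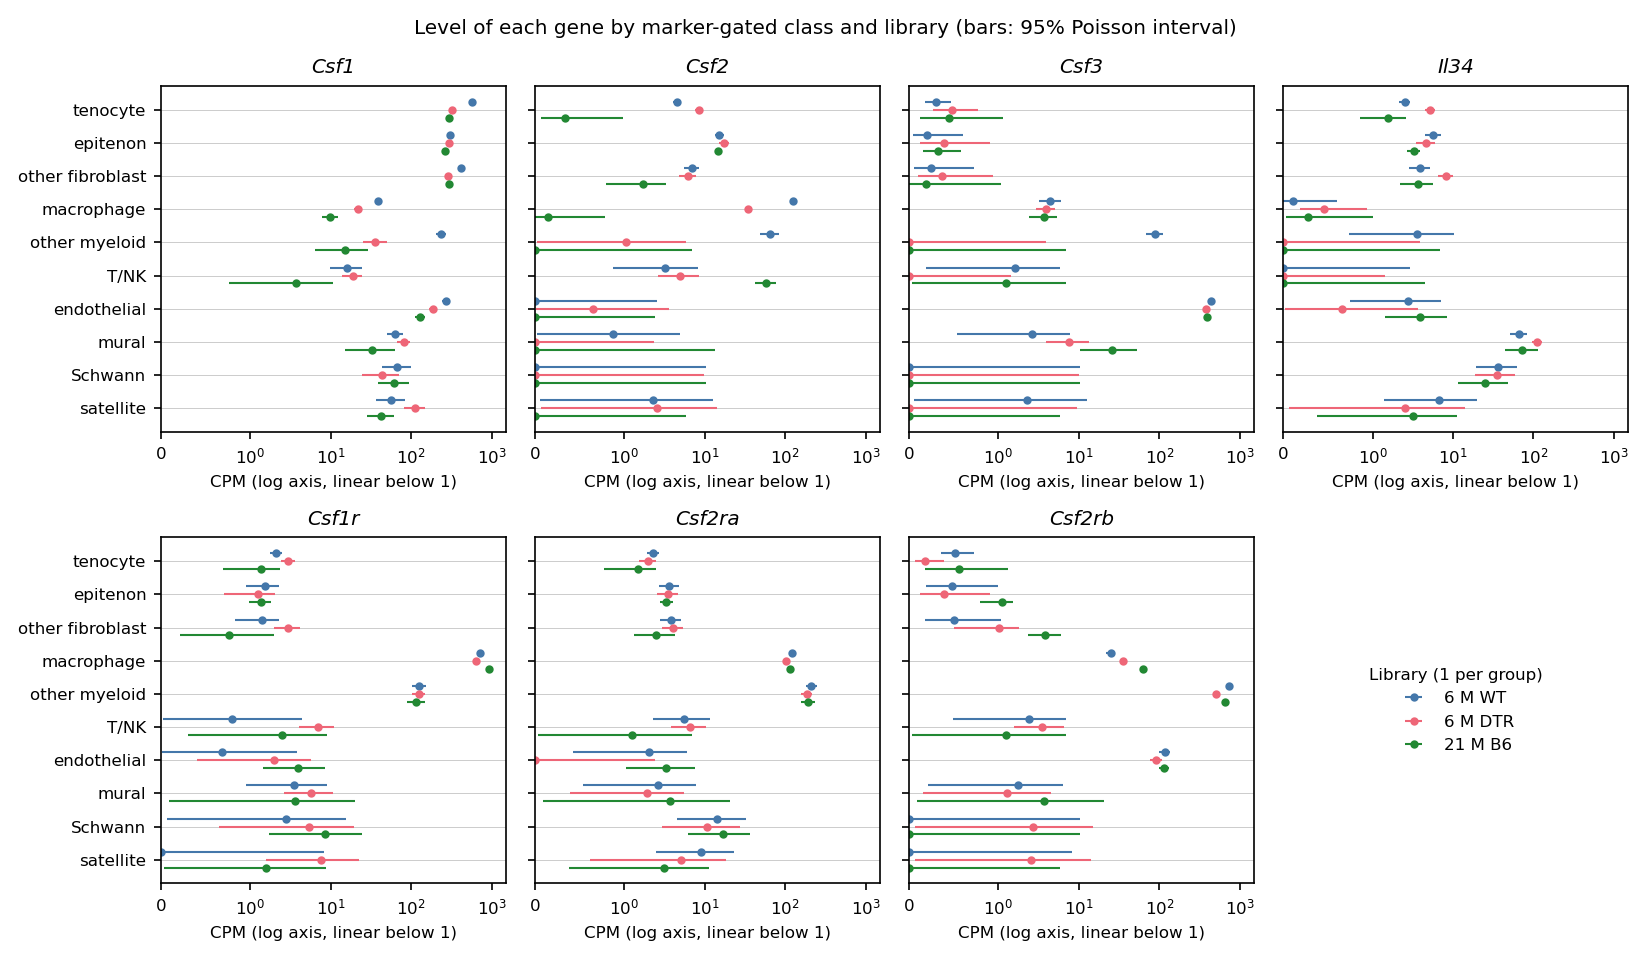
Level of each of the 7 genes in CPM (log scale, linear below 1) in each gated class, 1 point per library (WT, DTR, B6), with exact 95% counting intervals. Csf1 is highest in tenocytes (570 CPM in WT), Csf3 in endothelial cells (379.8 to 433 CPM), Il34 in mural cells (65.7 to 111 CPM) and Csf1r in macrophages (650.0 to 929.9 CPM).

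Csf2, which encodes GM-CSF, was a rare message, and the class that held most of it differed between libraries. Over all kept cells it stood at 16.5 CPM (15.8 to 17.3) in WT, 14.5 CPM (13.7 to 15.3) in DTR and 8.79 CPM (8.09 to 9.54) in B6, from 1875, 1245 and 578 UMIs in 151, 134 and 69 cells. Against WT the ratios were 0.877 (0.816 to 0.943) and 0.532 (0.484 to 0.585). The first of these turned with the choice of cells: it was 1.11 without the 10 cells of highest Csf2 in each library and 2.05 among cells called male. The second was 1.05 among cells with 5000 to 20000 UMIs.

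Macrophages of WT held Csf2 at 125 CPM (118 to 132), those of DTR at 34.6 CPM (31.7 to 37.7) and those of B6 at 0.141 CPM (0.00357 to 0.787). The counts behind these levels were 1156 UMIs in 38 cells, 529 UMIs in 45 cells and 1 UMI in 1 cell. Few cells carried the message, since the 10 highest held 87.1% of it in WT, where 1 cell had 294 UMIs, and 80.7% in DTR, where the highest had 91. The DTR level was 0.277-fold that of WT (0.25 to 0.308), while the B6 level was 0.00113-fold (2.86e-05 to 0.00632). The thinned share of positive macrophages was 3.07%, 1.65% and 0.205%, against 0 of 41, 48 and 65 satellite-gated cells, and 1, 1 and 0 satellite-gated cells were positive in unthinned counts.

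The WT macrophage level rested on cells called female, which stood at 184 CPM on 1053 UMIs in 24 cells, while those called male stood at 26.6 CPM on 66 UMIs in 7 cells. In DTR the macrophages called female stood at 20.4 CPM and those called male at 46.8 CPM. Among male cells alone the ratio of DTR to WT was 1.76, and among cells with 5000 to 20000 UMIs it was 1.17, so the lower level in DTR did not hold in every subset. In B6 the macrophages called female or male had 0 Csf2 UMIs, and the 1 UMI lay in a cell of uncalled sex.

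Macrophages with Csf2 were deeper than those without, at a median of 24548 against 16057 UMIs in WT and 21163 against 12952 in DTR. Among the 38 and 45 positive cells, 3 and 2 had a doublet score in the highest 5% of their library. A tenocyte marker was read in 52.6% and 53.3% of positive macrophages, against 42.7% and 33.9% of negative ones, and a T or NK marker in 0% and 4.44%. The part of doublets in the Csf2 level beyond these values was not tested.

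The 5 genes whose detection differed most between macrophages with and without Csf2 in WT were Bcl2a1b, Tnfsf9, Il1a, Clec4e and Malt1. Bcl2a1b, a Bcl-2 family survival gene, was detected in 86.8% of macrophages with Csf2 against 44.7% without in WT, and in 66.7% against 38.4% in DTR. Il1a, the cytokine interleukin 1 alpha, was detected in 76.3% against 36.1% and in 60.0% against 20.7%. Clec4e, a lectin receptor for microbial glycolipids and dead cells, was detected in 65.8% against 30.3% and in 73.3% against 41.6%. Tnfsf9, the ligand of 4-1BB, was detected in 81.6% against 40.2% and in 57.8% against 35.3%. Malt1, a signalling protease upstream of NF-kappaB, was detected in 47.4% against 12.8% and in 28.9% against 10.9%. All 5 were detected more often in positive cells in both libraries, the first of which was used to pick them. Of the 20 genes of stromal inflammation, 11 were more often detected in positive macrophages in each of these libraries. So were 9 (WT) and 7 (DTR) of the 16 immediate-early genes. Of all detected genes, 30.7% and 28.7% were, but rare genes are easily missed in so few positive cells, which lowers this share. Nothing is read from the difference.

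**Figure D3:**
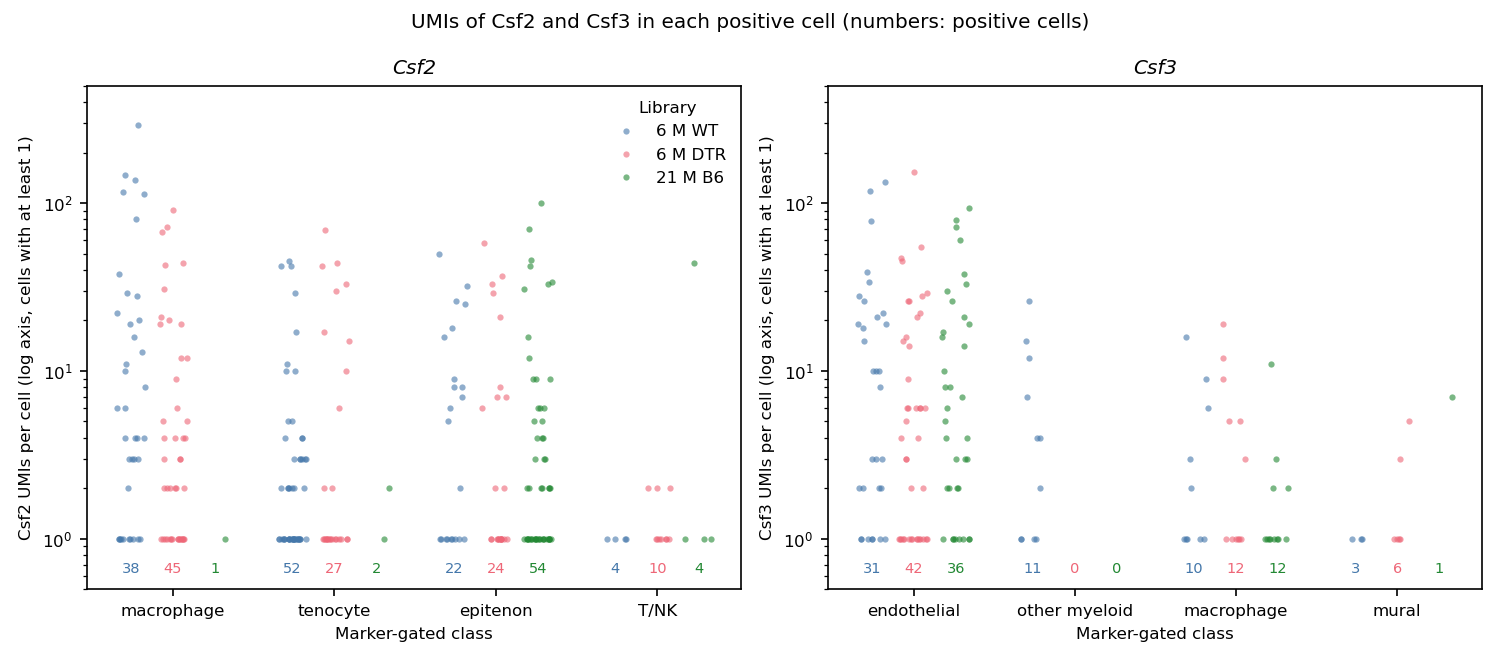
UMIs of Csf2 (left) and Csf3 (right) in each positive cell of 4 gated classes (log scale), 1 point per cell, coloured by library, with the number of positive cells under each group. The highest macrophage has 294 Csf2 UMIs in WT, 91 in DTR and 1 in B6, while epitenon-gated cells reach 50, 58 and 100.

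Epitenon-gated cells held Csf2 at 15.2 CPM (13.3 to 17.3) in WT, 17.3 CPM (15.1 to 19.8) in DTR and 14.6 CPM (13.4 to 16.0) in B6. DTR stood at 1.14-fold (0.943 to 1.38) and B6 at 0.963-fold (0.821 to 1.13) the WT level. The counting intervals of the 3 levels overlapped, but both ratios moved with the choice of cells. The DTR ratio was 0.523 with the stricter gate, 1.62 in cells called female and 0.855 in those called male. The B6 ratio was 1.59 in cells called female, 0.629 in those called male and 2.03 without the 10 highest cells of each library. The class held 11.8%, 17.9% and 86.2% of the Csf2 UMIs of its library, in 22, 24 and 54 positive cells. The thinned share of positive cells was 1.33%, 0.998% and 1.03%. Among the 5 genes whose detection differed most between cells with and without Csf2 in this class of WT, Ccl2, a chemokine that draws monocytes, was detected in 90.9% against 57.4%, 87.5% against 52.8% and 81.5% against 58.7% in WT, DTR and B6. Ier5, an early response gene, was detected in 81.8% against 47.5%, 79.2% against 43.2% and 81.5% against 62.7%. Plau, Igfbp5 and Ets1 were the others.

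Tenocytes held 286, 286 and 3 Csf2 UMIs, at 4.49 CPM (3.99 to 5.05), 8.50 CPM (7.55 to 9.55) and 0.337 CPM (0.0694 to 0.984) in 52, 27 and 2 cells. Ratios to WT were 1.89 (1.60 to 2.24) in DTR and 0.0749 (0.0154 to 0.221) in B6. The first rested on few cells: the 10 highest tenocytes held 93.7% of the DTR UMIs, and without the 10 highest of each library the ratio was 0.488. By thinned shares of positive cells (0.425%, 0.394% and 0.135%) the DTR ratio was 0.928. The WT level rested on cells called female, at 6.24 CPM on 260 UMIs, while those called male stood at 0.801 CPM on 11 UMIs. Tenocytes called female stood at 13.5 CPM in DTR and 0.546 CPM in B6. In those called male the ratios to WT were 7.17 in DTR and 0.381 in B6, the latter on 1 against 11 UMIs. Tenocytes with Csf2 also held Csf1 more often, in 69.2% against 45.2% of cells in WT and in 51.9% against 32.2% in DTR. The other genes whose detection differed most there were Fkbp1a, Tubb5, Dbi and Slc7a2.

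T and NK cells, a classical source of GM-CSF, held few Csf2 UMIs: 4, 13 and 47, at 3.19, 4.98 and 57.9 CPM. Of the 47 in B6, 44 lay in 1 cell of 9360 UMIs. That cell, singled out after its values were seen, also had 139 UMIs of Il5, 11 of Il13 and 18 of Gata3, with 11 of Cxcr6 and 5 of Icos. It had 1 UMI of Cd3g and 0 of Cd3e, Cd3d, Trdc and Tcrg-C1, genes of the T cell receptor complex. The other 75 T and NK cells of B6 had 3 Csf2 UMIs and 189 Il5 UMIs between them. With the stricter gate, which asked for at least 4 markers, T and NK cells held 0 Csf2 UMIs in B6 and 4 in WT. Of 10 genes of T cells that make Csf2, 9 were compared in T and NK cells, of which 3 were 2-fold higher and 0 lower in DTR and 2 higher and 1 lower in B6. Their median log2 ratios were 0.16 and -0.48, against 0.02 and -0.28 for all genes compared in the class, of which 5.25% and 16.0% were 2-fold different. Gamma delta T cells, gated on Trdc and Tcrg-C1, held 2, 7 and 0 Csf2 UMIs in 75, 189 and 38 cells.

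Other fibroblast-gated cells held 83, 67 and 9 Csf2 UMIs in 15, 11 and 3 cells, at 6.93, 6.11 and 1.73 CPM. Other myeloid cells of WT held 54 UMIs (63.9 CPM), 38 of them in 1 cell, while those of DTR held 1 and those of B6 held 0, which allows up to 5.61 CPM. Endothelial cells held 0, 1 and 0 UMIs, mural cells 1, 0 and 0, and Schwann cells 0 in every library.

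Csf3, which encodes G-CSF, was an endothelial message in all 3 libraries. Endothelial cells held it at 433 CPM (399.6 to 468) in WT, 379.8 CPM (349.5 to 412) in DTR and 388 CPM (358 to 421) in B6, from 633, 581 and 596 UMIs. These were 65.0%, 71.0% and 78.8% of all Csf3 UMIs, although the class made up 1.90%, 2.35% and 2.92% of kept cells. The ratios to WT were 0.878 (0.783 to 0.984) and 0.897 (0.801 to 1.00). The DTR ratio lay between 1.02 and 1.08 under 5 of the alternatives given at the end. In cells called female DTR stood at 278 CPM against 401 CPM in WT. In those called male it stood at 490 against 739 CPM, a ratio of 0.662, the lowest of 17 alternatives. The B6 ratio was 1.59 in cells called female (637 against 401 CPM) and 0.416 in those called male (308 against 739 CPM). A minority of endothelial cells carried the message: 31, 42 and 36 cells were positive, the highest with 133, 154 and 94 UMIs. The thinned shares were 14.0%, 14.9% and 15.7%, against 0 in satellite-gated cells of all libraries.

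Endothelial cells with Csf3 often carried the selectins, adhesion molecules of activated vessels that slow leukocytes. Selp was detected in 61.3% of cells with Csf3 against 6.35% without in WT, in 52.4% against 16.1% in DTR and in 27.8% against 1.92% in B6. Sele was detected in 58.1% against 7.14%, 52.4% against 12.5% and 22.2% against 0%. Tnfaip3, a brake on NF-kappaB signalling, was detected in 58.1% against 19.8%, 50.0% against 19.6% and 30.6% against 10.6%. Neurl3 and Slc7a11 were the other genes named by the rule. The positive cells had a median of 11286 UMIs in WT against 7634 in the negative ones. Outside the endothelium, other myeloid cells of WT held 74 Csf3 UMIs in 11 cells (87.5 CPM), while those of DTR and B6 held 0, which allows up to 3.19 and 5.61 CPM. Macrophages held 4.43, 3.86 and 3.67 CPM. Cells of no class also held Csf3, with up to 47 (WT), 34 (DTR) and 26 (B6) UMIs in a cell. In each library they held more Csf3 UMIs than any gated class except endothelial cells.

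Csf1r, the receptor for Csf1 and Il34, marked macrophages in every library. They held 94.3%, 95.1% and 96.4% of its UMIs, at 728 CPM (711 to 745) in WT, 650.0 CPM (637 to 663) in DTR and 929.9 CPM (908 to 953) in B6. The ratios to WT were 0.893 (0.866 to 0.921) and 1.28 (1.23 to 1.32). The order of the libraries was the same in cells of both sexes, with 708, 672 and 916 CPM in macrophages called female and 779, 646 and 943 CPM in those called male. The thinned share of positive macrophages was 69.8%, 68.5% and 79.3%. In tenocytes it was 0.552%, 0.512% and 0.271% and in satellite-gated cells 0 in every library.

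The level was higher in macrophages with little MHC class II, the molecules that present antigen to helper T cells. MHC class II low macrophages held Csf1r at 746, 676 and 1015 CPM, and MHC class II high macrophages at 324, 449 and 411 CPM, from 20, 128 and 66 cells. The high cells were thus below the low cells in each library. Other myeloid cells held 125, 125 and 116 CPM. T and NK cells held 0.797, 6.89 and 2.46 CPM, and tenocytes 2.11, 2.97 and 1.35 CPM. Over all kept cells Csf1r stood at 63.0, 122 and 104 CPM, which was 1.93-fold and 1.65-fold the WT level, and macrophages were 6.62%, 16.7% and 10.2% of kept cells.

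Csf2ra, the binding chain of the GM-CSF receptor, was a gene of macrophages and other myeloid cells. Macrophages held it at 123 CPM (116 to 130) in WT, 101 CPM (95.9 to 106) in DTR and 115 CPM (107 to 123) in B6. The ratios to WT were 0.820 (0.759 to 0.886) and 0.935 (0.854 to 1.02). Other myeloid cells held 212, 186 and 191 CPM, and the macrophages that were MHC class II high held 212, 128 and 148 CPM against 119, 97.5 and 110.0 CPM in the low ones. Macrophages held 67.7%, 78.3% and 72.6% of all Csf2ra UMIs. Their thinned positive share was 21.3%, 15.5% and 17.0%, against 0.318%, 0.197% and 0.541% in tenocytes and 0, 2.08% and 1.54% in satellite-gated cells.

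**Figure D4:**
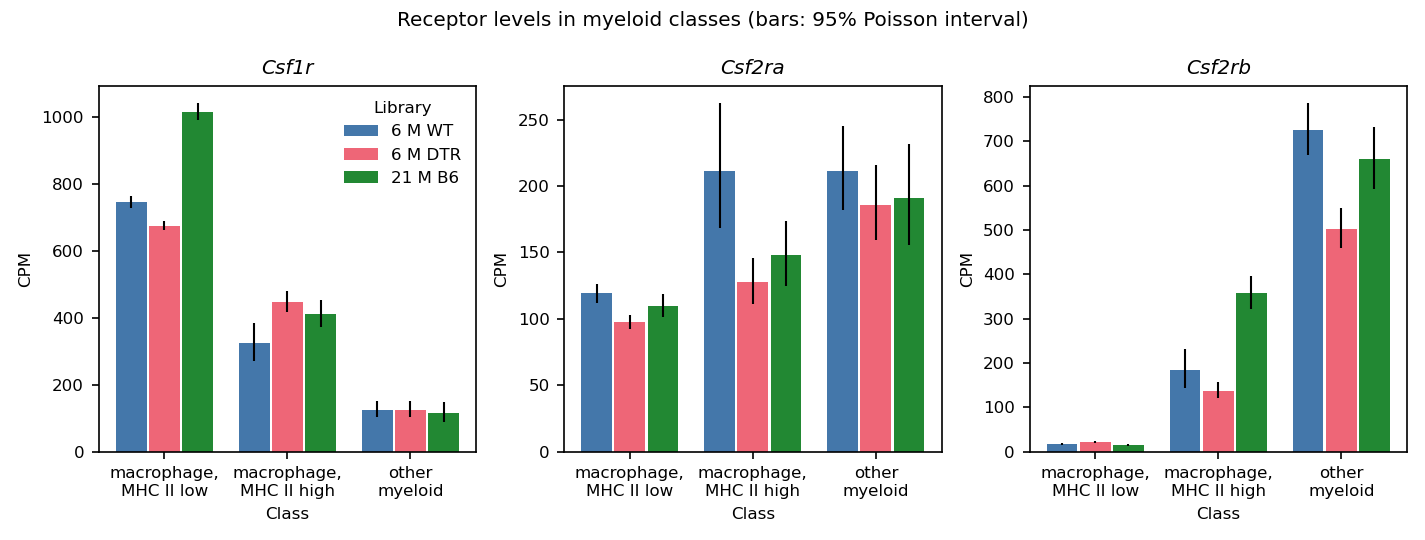
Bars give the levels of Csf1r, Csf2ra and Csf2rb in CPM (linear scale from 0) in MHC class II low and high macrophages and other myeloid cells of each library, and black lines the exact 95% counting intervals. Csf1r is higher in the MHC class II low macrophages (676 to 1015 CPM against 324 to 449 CPM), and Csf2rb is higher in the high ones (138 to 357 CPM against 14.6 to 22.3 CPM).

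Csf2rb, the signalling chain, was like Csf2ra higher in other myeloid cells than in macrophages, but unlike Csf2ra it was also read in endothelial cells. It was highest in other myeloid cells, at 726 CPM (670 to 786) in WT, 503 CPM (459 to 551) in DTR and 660 CPM (593 to 733) in B6. The ratios to WT in this class were 0.693 (0.614 to 0.783) and 0.910 (0.796 to 1.04). Endothelial cells held it at 117, 91.5 and 114 CPM, where Csf2ra had 3, 0 and 5 UMIs. The thinned share of positive endothelial cells was 16.6%, 16.2% and 11.4%, against 0.0849%, 0.0394% and 0.135% of tenocytes and 0 of the satellite-gated cells.

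Macrophages held Csf2rb at 24.7 CPM (21.6 to 28.1) in WT, 35.2 CPM (32.3 to 38.3) in DTR and 62.7 CPM (57 to 68.8) in B6. The ratios to WT were 1.43 (1.22 to 1.67) and 2.54 (2.16 to 2.99), and the first became 0.674 in the cluster named macrophage by the same markers. That cluster held 669, 1193 and 534 cells. No cluster was named for other myeloid cells, whose Csf2rb level was far higher, and their number in the macrophage cluster was not counted. The second ratio was 1.14 in that cluster, 1.77 with the stricter gate, 1.99 with the looser one and 1.93 by positive shares, all below the 2-fold mark, and 4.04 at a mitochondrial limit of 5%. The level was higher in MHC class II high macrophages, at 183, 138 and 357 CPM, while the low ones held 17.7, 22.3 and 14.6 CPM. The high cells were 20 of 553, 128 of 1093 and 66 of 488 macrophages and held 72 of 229, 237 of 539 and 355 of 444 of their Csf2rb UMIs. In the MHC class II low macrophages, which were the large majority, the counting intervals of WT (15.0 to 20.7) and B6 (11.7 to 17.98) overlapped. Csf2rb has a close paralog, Csf2rb2, and the handling of reads from stretches they share was not examined. Csf2rb2 stood at 131, 87.1 and 138 CPM in other myeloid cells and at 85.4, 94.8 and 69.7 CPM in endothelial cells.

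**Figure D5:**
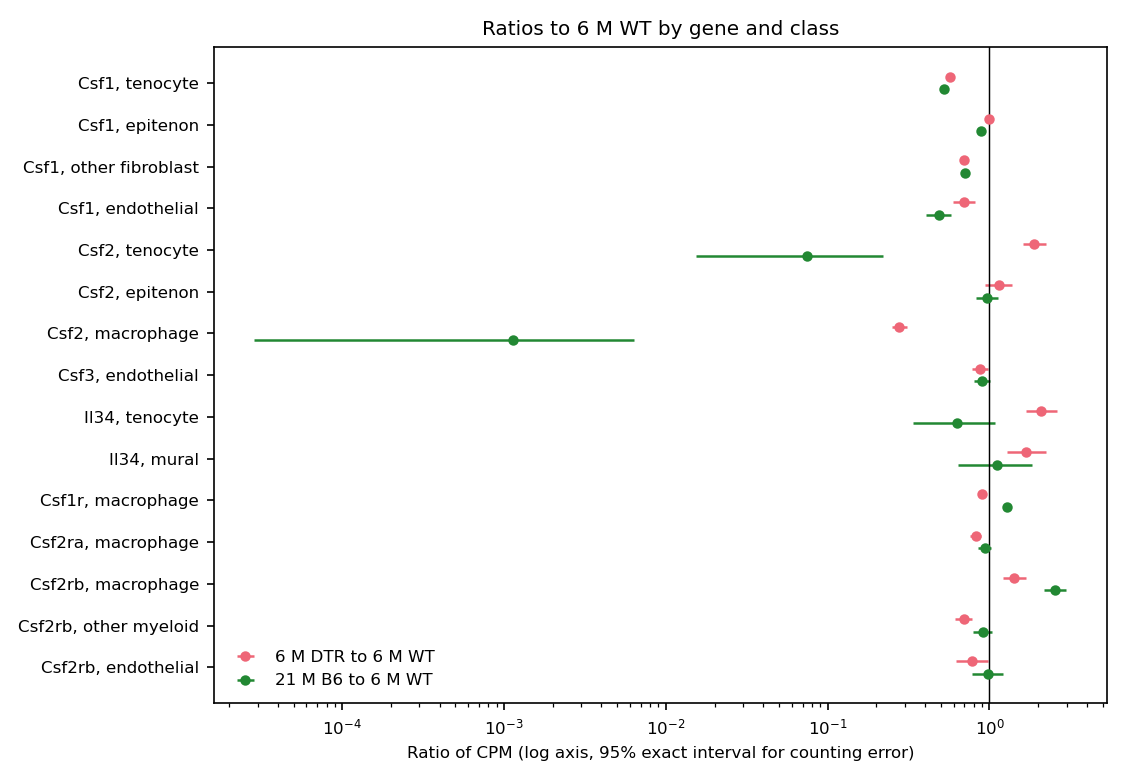
Ratio of the CPM of DTR (red) and B6 (green) to that of WT for 15 pairs of a gene and a class (log scale), with exact 95% counting intervals and a line at 1. Csf1 lies at 0.572 and 0.522 in tenocytes, Csf2 at 0.277 and 0.00113 in macrophages and Csf1r at 0.893 and 1.28 in macrophages.

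Counted against all genes of the same class, the 7 genes gave the following in the classes named here. In macrophages, 5 of them reached 10 CPM. Of these, 1 (Csf2, lower) was at least 2-fold different in DTR, where 2.13% of all genes compared were. In B6 it was 3 of 5 (Csf2rb higher, Csf1 and Csf2 lower), where 6.06% of all genes were, and the call of Csf2rb was lost under the 4 settings named above. In endothelial cells it was 0 of 3 in DTR and 1 of 3 (Csf1, lower, with the exceptions given above) in B6, with 4.97% and 11.8% of all genes. In T and NK cells it was 0 of 1 in DTR and 2 of 2 (Csf2 higher and Csf1 lower) in B6, with 5.25% and 16.0% of all genes. The call of Csf2 there came mostly from 1 cell that the stricter gate left out. Other myeloid cells are left out of this count, since the share of all genes was not counted for this small class. Csf1, Csf2 and Csf3 were lower there in DTR and B6. For Csf3 in both libraries and for Csf2 in B6 this rested on a count of 0, which was set to 3. Since the genes were chosen with these levels known, nothing is read from the counts.

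Genes upstream and downstream of the receptors were taken as lists. Of 20 signalling genes of these receptors, such as Jak2, Stat5a and Ptpn6, 18 were compared in macrophages. In DTR 0 were 2-fold different, where 2.13% of all genes compared were, with a median log2 ratio of -0.10 against -0.03 for all genes. In B6 1 was higher and 0 lower, where 6.06% of all genes were 2-fold different, with a median of 0.03 against -0.09. The higher one was Stat3 at 2.07-fold (1.93 to 2.23), a transcription factor downstream of cytokine receptors. The lowest ratio there was that of Pim1, a kinase gene induced by STAT proteins, at 0.521 (0.499 to 0.544). Of 8 transcription factors of macrophages, among them Spi1, which encodes PU.1, all 8 were compared and 0 were 2-fold different in either library. Spi1 stood at 0.712-fold (0.679 to 0.746) and Cebpa at 1.62-fold (1.45 to 1.82) in B6.

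The related receptors and ligands were mostly low. Csf3r, the receptor of Csf3, stood at 31.9, 5.31 and 16.8 CPM in other myeloid cells and at 1.08, 2.29 and 6.07 CPM in macrophages. Il3ra, the binding chain for Il3, stood at 16.8, 13.3 and 15.1 CPM in macrophages, and Il3 itself had 0 CPM in each class listed. Il5ra did not pass 1.26 CPM in any class listed. Sdc1, a proteoglycan reported to bind Il34, stood at 135, 232 and 98.6 CPM in mural cells, and Ptprz1, another Il34 receptor, at 20.3, 46.0 and 12.6 CPM in satellite-gated cells.

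Inflammatory genes of macrophages moved in B6 beside Csf2. Of 13 stromal inflammation genes compared in macrophages, 7 were at least 2-fold lower and 2 higher in B6, where 6.06% of all genes compared were 2-fold different. The median log2 ratio was -1.08 against -0.09 for all genes. Il1b, the cytokine interleukin 1 beta, stood at 952, 888 and 289 CPM, and Cxcl2, a chemokine for neutrophils, at 31381, 30872 and 12341 CPM. Il6 was 3.65-fold higher (2.96 to 4.52), from 13.4 CPM in WT to 48.8 CPM in B6. It stood at 401 and 909 CPM in epitenon-gated cells of these 2 libraries and at 3851 and 3902 CPM in mural cells. The part of free RNA from those cells in the macrophage value was not tested. In DTR 1 of 13 was lower (Saa3, an acute phase gene, 0.125-fold, 0.0880 to 0.175) and 0 were higher, where 2.13% of all genes compared were 2-fold different. The median was -0.22 against -0.03 for all genes. Saa3 stood at 22.5 CPM in macrophages of WT and 2.81 CPM in those of DTR, against 636 and 155 CPM in tenocytes. The part of free tenocyte RNA in its ratio was not tested. Of 16 immediate-early genes, which dissociation can also induce, 0 were 2-fold different in DTR and 4 were lower in B6. Their medians were 0.23 and -0.57 against -0.03 and -0.09 for all genes. The part of dissociation in the Csf2 level was not tested.

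The same lists in tenocytes, beside Csf1, gave 1 higher and 4 lower of 16 stromal inflammation genes in DTR (median -0.49) and 3 higher and 4 lower in B6 (median -0.42). Of all genes compared there 3.85% and 5.92% were 2-fold different, with medians of 0.03 and -0.27. Lcn2, an iron-binding acute phase protein, stood at 244, 79.4 and 61.1 CPM and Saa3 at 636, 155 and 331 CPM. Immediate-early genes were 2-fold higher for 3 of 16 in DTR (median 0.64) and for 6 of 15 in B6 (median 0.95), with 0 lower in either. RNA of other cells also moved: the 4 haemoglobin genes of red cells summed to 1006, 5239 and 1354 CPM in tenocytes and the 6 skeletal muscle genes to 48.2, 109 and 181 CPM. The part of these differences in the Csf1 ratios was not tested.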

How the data were processed

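Droplet single-cell RNA-seq was analysed from 3 libraries of FDL tendon cells, 1 per group. The deposited files held whole-number UMI counts per gene and barcode, made by the authors with Cell Ranger (version 6.0.1 in the file header, 2.1.1 in the submitters' processing notes). The genome build is not given in the sources used here. The study's methods removed low-quality cells by genes and mitochondrial share, and the same limits were set here: 1000 to 5000 genes and at most 10% mitochondrial counts. The deposited barcodes numbered 15536, 16099 and 12273.

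A cell was gated to a class with at least 3 of its 6 markers and at least 2 more than of any other class. Other myeloid cells needed 4 of 6 general myeloid genes and fewer than 3 macrophage markers, and other fibroblasts 3 UMIs or more of at least 4 of 6 matrix genes. Cells of no class were 9.42%, 8.83% and 12.2%. Cells were called female with a UMI of Xist and none of 4 Y-linked genes, and male in the opposite case. MHC class II high macrophages had at least 10 UMIs per 10000 of H2-Aa, H2-Ab1 and H2-Eb1. Doublets were kept, since Scrublet's own threshold marked very few cells. The 7 genes and all lists were chosen with earlier results of these data known.

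Raw counts were summed per class and library and given as CPM with exact Poisson intervals, ratios with exact conditional binomial intervals and shares with exact Clopper-Pearson intervals (95%), in Python 3.11.15 with scipy 1.17.1 and scanpy 1.11.5. A count of 0 allows up to 3 counts. With 1 library per group no test was run. Shares of positive cells were taken after thinning each cell to 2000 UMIs, except where given as unthinned, which left out 9, 5 and 1 shallower cells of WT, DTR and B6. Genes detected with a ligand were the 5 of largest difference in share in WT. The genes of most similar level were the 3 of highest Pearson correlation of log2(CPM + 1) over class sums of at least 50 cells, of which 1 gene is not reported here. Named list genes were those with the largest ratio or the highest level. TMM factors came from edgeR 4.0.16. The ratio script was tested on simulated counts. Gene positions came from GENCODE M21 (GRCm38), matched by identifier, and promoters from RefSeq (GRCm38.p6). Alternatives covered filters, gates, clusters, doublet scores, sex, depth and the highest cells.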

Additional observations from a re-analysis of the deposited data

Results flagged for a closer look

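In 4 instances a gene's ratio of DTR to WT lay above 1 in one class and below 1 in another with counting intervals on either side of 1. None of these differences between classes was tested, since each group was 1 library. Csf1 was 2-fold in satellite-gated cells, on 25 and 44 UMIs, and 0.153-fold in other myeloid cells. Csf2 was 1.89-fold in tenocytes and 0.277-fold in macrophages. Csf1r was 1.41-fold in tenocytes, at levels of 2.11 and 2.97 CPM, and 0.893-fold in macrophages. Csf2rb was 1.43-fold in macrophages and 0.693-fold in other myeloid cells.

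Barcodes outside the limits on genes and mitochondrial counts also held the 7 genes, with 15773, 10834 and 7594 UMIs in all in WT, DTR and B6. For Csf2 these barcodes held 950, 548 and 328 UMIs, of which 917, 499 and 317 lay in barcodes of over 5000 genes.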

How the results depend on the processing

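No paired analysis was possible because each group was 1 library and the labels carry no replicate numbers. The alternatives on the highest 5% of doublet scores, shared barcodes, the highest cells and shares of positive cells were chosen after seeing the data. For Csf1 in tenocytes of DTR (0.572) the values outside its interval were 0.528 with TMM factors, 0.624 in female and 0.525 in male cells, 0.539 after thinning, 0.523 at 5000 to 20000 UMIs, 0.556 without the highest doublet scores, 0.549 without the 10 highest cells and 0.713 by positive shares. In B6 (0.522) they were 0.587 at a mitochondrial limit of 5%, 0.493 with no upper limit on genes, 0.484 in all barcodes, 0.553 in Leiden clusters, 0.612 with TMM, 0.468 without the 10 highest cells and 0.765 by positive shares. For Csf2 in all kept cells of DTR (0.877) they were 0.808 at 5% mitochondrial and with TMM, 0.798 with no upper limit, 0.759 in all barcodes, 0.687 in female cells and 0.964 without the highest cell. That ratio turned to 2.05 in male cells, 1.13 after thinning, 1.60 at 5000 to 20000 UMIs, 1.11 without the 10 highest cells and 1.07 by positive shares. In B6 (0.532) they were 0.715 at 5% mitochondrial, 0.612 in female and 0.642 in male cells, 0.603 after thinning, 0.320 without the 10 highest cells and 0.801 by positive shares, and the ratio turned to 1.05 at 5000 to 20000 UMIs. For Csf1r in macrophages of DTR (0.893) they were 0.922 in Leiden clusters, 0.949 in female and 0.829 in male cells and 0.981 by positive shares. In B6 (1.28) they were 1.10 at 5% mitochondrial, 1.34 with no upper limit, 1.33 in all barcodes and with TMM, 1.21 in male cells, 1.22 at 5000 to 20000 UMIs and 1.14 by positive shares. Among the other ratios, 6 whose counting interval did not include 1 turned: Csf1 in epitenon-gated cells of B6 (1.08 with TMM), Csf2 in DTR (tenocytes 0.488 without the 10 highest cells and 0.928 by positive shares, macrophages 1.76 in male cells and 1.17 at 5000 to 20000 UMIs), Csf3 in endothelial cells of DTR (1.02 with no upper limit, 1.03 in all barcodes, and 1.08, 1.08 and 1.07 in Leiden clusters, without the 10 highest cells and by positive shares) and Csf2rb in DTR (macrophages 0.674 in Leiden clusters, other myeloid cells 1.02 in male cells). The cause was not tested. Of 38 other ratios, 18 kept 1 direction under every alternative run and 20 crossed 1 under at least 1, these 6 and 14 whose interval included 1, such as Csf3 in endothelial cells of B6 (0.416 to 1.59) and Csf2 in epitenon-gated cells of DTR (0.523 to 1.62) and B6 (0.629 to 2.03). Of the 609 values of the 38, 438 stayed within the counting interval. Of 144 alternative values for 36 shares, 26 did, and 31 alternatives with a count of 0 gave no value. Counting intervals do not cover variation between mice.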

Other observations

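The genes whose levels were most like those of each of the 7 genes over 25 class sums of the 3 libraries were compared as a description; the sums share libraries and classes, and no function is read from them. Csf1r was most like C5ar1, the receptor of complement C5a, Cd68, a lysosomal protein of macrophages, and Cd300ld, with Pearson's r of 0.98 for each. Csf2ra was most like Cd86 and Nlrp3 (0.96 for each). Csf2rb was most like its paralog Csf2rb2 (0.95), Bcl10 (0.92) and Tbc1d9 (0.91). Csf3 was most like the endothelial genes Lrg1 (0.96), Arap3 (0.95) and Rasip1 (0.92). Il34 was most like Map1lc3a (0.93), Hspb2 (0.92) and Adamts12 (0.91), and Csf1 was most like Galnt15 (0.89), Pcolce and Ly6c1 (0.87 for each). Csf2, which lay in few cells, had the weakest likenesses, with Orai2 and Acp5 at 0.70 and Apbb1ip at 0.69.

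Macrophages also differed in their own genes between libraries. The 3 MHC class II genes were 3.04-fold to 3.46-fold higher in macrophages of B6 and 1.66-fold to 1.77-fold higher in those of DTR than in WT. Of 6 genes of resident macrophages, Cd163, a haemoglobin scavenger receptor, and Timd4, a receptor for dying cells, were 0.346-fold (0.318 to 0.377) and 0.354-fold the WT level in DTR. In B6 Timd4 was 2.68-fold higher (2.29 to 3.15) and 0 of the 6 were 2-fold lower. Of all genes compared in macrophages, 2.13% (DTR) and 6.06% (B6) were 2-fold different.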
